A study of Mus musculus with 30 samples.

Results

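Voltage-gated sodium channel genes were followed in whole-brain RNA of Arid1b+/- (HT) and wild-type (WT) mice at 2 ages. The members were chosen by name from the channel family, not by a rule on their values, but with earlier results of these data known. They comprise the alpha subunit genes Scn1a, Scn2a, Scn3a and Scn8a and the beta subunit genes Scn2b, Scn3b and Scn4b. All 7 are among the 19737 genes of the expression table, and all 7 passed the filter on low values (a mean of at least 10 normalized counts) in each comparison.

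A sodium channel consists of a large alpha subunit, which forms the pore and opens when the membrane is depolarized, and smaller beta subunits, which modify gating, help to place the channel in the membrane and act as cell adhesion molecules. These channels start and carry the action potential, and in neurons they are concentrated at the axon initial segment and the nodes of Ranvier. In rodent brain the family is known for a change of composition during development: Scn3a is prominent in embryonic and early postnatal brain, Scn2a precedes Scn8a at maturing axons, and Scn1a is the main alpha subunit of fast-spiking interneurons.

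The 30 libraries came from male C57BL/6N mice, 5 per group. HT mice carried 1 Arid1b allele with a germline CRISPR/Cas9 deletion at exon 5 and an insertion of TT, and every mouse came from an HT sire and a WT dam. The groups were WT and HT at postnatal day 10 (P10-WT, P10-HT), without treatment, and WT and HT at day 120 whose dams had drunk 0.2% saccharin alone (P120-WT-Veh, P120-HT-Veh) or 0.2% saccharin with 0.1 mg/ml fluoxetine, a serotonin reuptake inhibitor, from day 3 to day 21 (P120-WT-Flx, P120-HT-Flx). The HT state is not limited to a cell type, and fluoxetine reached pups by milk only, with no dose per pup given. Whole brain mixes all regions and cell types, so fewer cells of a type and less RNA per cell cannot be told apart.

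Values are normalized counts, that is, estimated read counts divided by the authors' size factors, and the read depth behind them is unknown. Their sums ran from 31578614 to 35542279 in the P10 and WT libraries, from 33200684 to 41801037 in P120-HT-Veh and from 37083545 to 41522113 in P120-HT-Flx. Arid1b had 2162 to 2334 normalized counts in P10-HT against 3164 to 3309 in P10-WT. At P120 the library labelled HT-Veh replicate 2 (3361) was at the WT level and the library labelled WT-Veh replicate 2 (2320) at the HT level. The comparisons of the members that rest on these libraries are therefore also given without them. Neuronal, astrocyte and oligodendrocyte markers were all detected, and no marker of any list was under 1 in every library of a group. A contrast of GC-rich minus GC-poor genes (mean log2 deviation of the top bin of genes minus that of the bottom bin, of 10 bins by GC content) ran from 0.56 to 1.33 in P120-HT-Flx, from -0.81 to -0.62 in P120-WT-Flx, from -0.78 to 0.84 in P120-HT-Veh and from -0.53 to 0.46 in P120-WT-Veh. The members differ in GC content, from 42.1% (Scn3a), 43.3% (Scn1a) and 43.4% (Scn2a) to 47.8% (Scn3b), 50.5% (Scn2b), 50.8% (Scn8a) and 54.5% (Scn4b), and results corrected for GC content and transcript length are therefore given beside the comparisons at P120.

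In GRCm38, Scn3a (chr2:65457118-65567627, minus strand), Scn2a (chr2:65620771-65767447, plus strand) and Scn1a (chr2:66270778-66440840, minus strand) lie in one cluster, with 53.1 kb between Scn3a and Scn2a and 503 kb between Scn2a and Scn1a. Scn8a lies alone (chr15:100869858-101045938, plus strand). The beta subunit genes are all on the plus strand of chromosome 9: Scn3b (chr9:40269217-40291618), Scn2b (chr9:45117782-45130070) and Scn4b (chr9:45138395-45154152), the last 2 only 8.32 kb apart. The alpha subunit coding sequences were 73.0% to 83.3% identical to each other, highest for Scn2a and Scn3a, and those of the beta subunits 40.6% to 49.4%. Over whole transcripts, 9.78% of the 31-base windows of Scn1a, 12.2% of those of Scn2a and 12.4% of those of Scn3a also occur in a transcript of another gene, against 0.67% for Scn8a, 2.21% for Scn2b, 0.36% for Scn3b and 0% for Scn4b. Read assignment was therefore least certain among Scn1a, Scn2a and Scn3a, and its effect on the values was not tested.

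Promoter sequences (RefSeq, GRCm38.p6) had an entry for Scn1a, Scn2a, Scn8a, Scn2b and Scn4b. The 250 bases upstream of the start of the chromosome 2 neighbours Scn1a and Scn2a are shown, since these genes moved in opposite directions with age in WT. For Scn1a this is chr2:66440838-66441087 on the minus strand, with a GC box and a CCAAT box in capitals, which do not overlap, and for the first of 2 Scn2a starts chr2:65620519-65620768 on the plus strand, with no match:
Scn1a: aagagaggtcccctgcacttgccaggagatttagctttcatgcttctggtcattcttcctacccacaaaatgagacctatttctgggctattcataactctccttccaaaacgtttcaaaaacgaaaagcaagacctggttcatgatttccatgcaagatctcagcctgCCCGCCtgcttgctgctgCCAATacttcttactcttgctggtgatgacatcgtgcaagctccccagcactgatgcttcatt
Scn2a: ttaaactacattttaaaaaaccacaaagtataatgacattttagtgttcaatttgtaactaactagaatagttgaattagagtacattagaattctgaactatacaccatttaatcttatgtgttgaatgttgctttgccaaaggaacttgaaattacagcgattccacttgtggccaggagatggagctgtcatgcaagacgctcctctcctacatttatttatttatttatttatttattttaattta

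The motifs searched on both strands were the TATA box (TATAAA, in 12.4% of the 32851 upstream windows of the table), the GC box (GGCGGG, 32.5%), the CCAAT box (CCAAT, 33.9%) and the left (TTCAGCACC, 0.301%) and right (GGACAGC, 5.28%) parts of RE1, the element bound by the repressor REST. The Scn1a window had a GC content of 46.8% with 4 CG dinucleotides and the Scn2a window 29.6% with 2, against medians of 52.4% and 6 over all windows. The window of the second Scn2a start (chr2:65668436-65668685, plus strand) had a TATA box, a GC content of 53.2% and 9 CG dinucleotides, so the Scn2a starts differ in these features.

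Levels of different genes were compared per kb of the longest protein-coding transcript. In P10-WT brain, Scn3b (1344 ± 113 normalized counts per kb, SD, n = 5) and Scn2a (1289 ± 13.3) stood highest, followed by Scn2b (1032 ± 151), Scn8a (952 ± 49.4), Scn1a (446 ± 49.2), Scn4b (392 ± 88.7) and Scn3a (305 ± 23.8). The libraries overlapped between Scn3b and Scn2a, Scn2b and Scn8a, Scn1a and Scn4b, and Scn4b and Scn3a. In P120-WT-Veh the order was Scn2b (2061 ± 241), Scn4b (2029 ± 206), Scn8a (1114 ± 64.7), Scn2a (850 ± 188), Scn3b (815 ± 165), Scn1a (624 ± 129) and Scn3a (132 ± 49.7). Here the neighbours Scn2b and Scn4b, Scn2a and Scn3b, and Scn3b and Scn1a overlapped. P10-HT differed from P10-WT in this order only by Scn8a above Scn2b, which overlapped in both groups, and P120-HT-Veh, P120-WT-Flx and P120-HT-Flx had Scn4b above Scn2b, which overlapped in all P120 groups. P120-HT-Flx also had Scn3b above Scn2a, again with overlap. With the length of all exons of a gene in place of its transcript, Scn2b moved to the first place in P10-WT and Scn3b above Scn2a in the vehicle groups, while Scn3a stayed last in all 6 groups.

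The make-up of both sets differed between the ages. Of the summed alpha level per kb, Scn2a made up 43.1% ± 1.34 in P10-WT and 30.97% ± 3.65 in P120-WT-Veh, and Scn8a 31.8% ± 0.787 and 41.4% ± 4.57. Scn3a went from 10.2% ± 0.910 to 4.75% ± 1.42 and Scn1a from 14.9% ± 1.28 to 22.9% ± 3.32. The summed alpha level itself was 2992 ± 82.3 at P10 and 2720 ± 348 at P120 in these groups, with libraries that overlapped, whereas the summed beta level went from 2768 ± 143 to 4904 ± 344 with no overlap. Of this beta level, Scn4b made up 14.1% ± 2.46 at P10 and 41.3% ± 1.31 at P120, and Scn3b 48.8% ± 6.13 and 16.7% ± 3.95. Without WT-Veh replicate 2 the order of levels in P120-WT-Veh was the same, the Scn2a and Scn8a shares were 30.3% ± 3.81 and 41.4% ± 5.27 and the Scn4b share 41.1% ± 1.38 (n = 4), and without HT-Veh replicate 2 the order in P120-HT-Veh was the same. These shares are a description without a test.

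**Figure D1:**
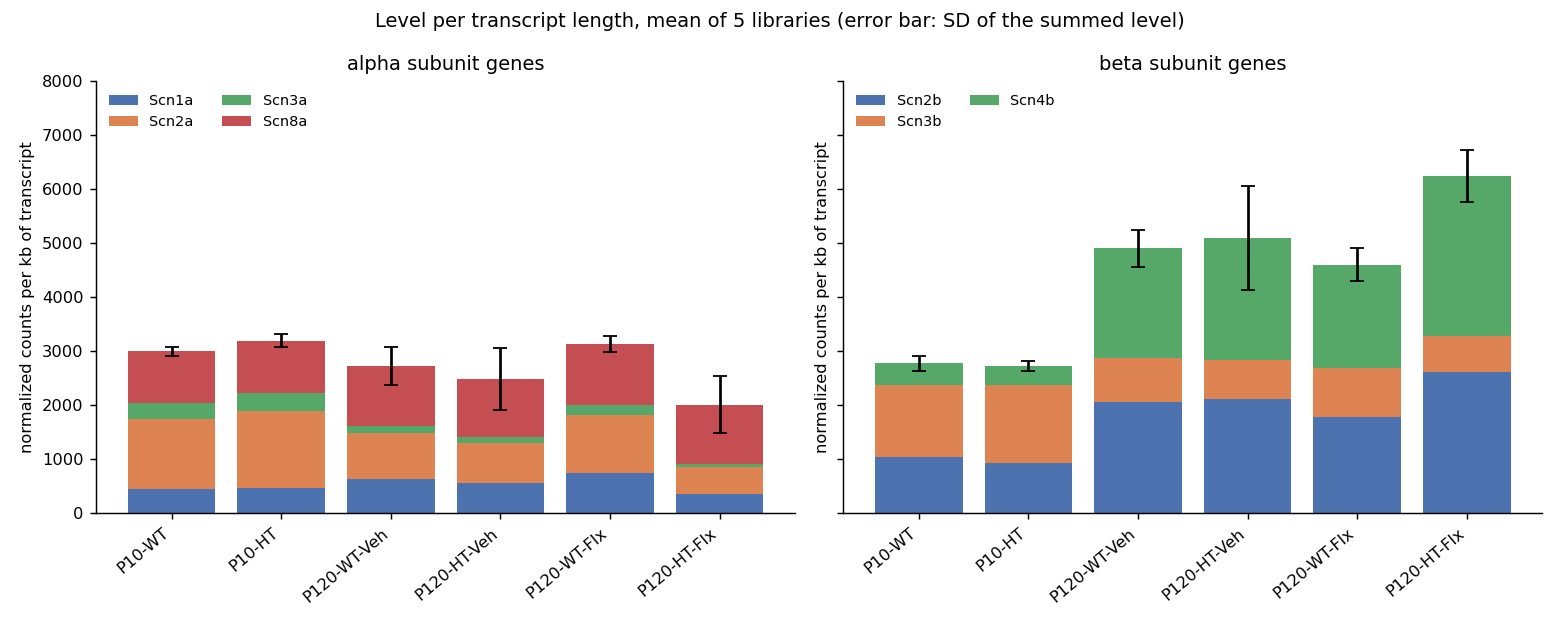
Stacked bars give the mean level of each alpha subunit gene (left) and beta subunit gene (right) in the 6 groups, in normalized counts per kb of transcript; error bars are the SD of the summed level (n = 5). Scn8a and Scn4b take larger parts of the bars at P120 than at P10, and the summed beta level is 2768 in P10-WT and 4904 in P120-WT-Veh.

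The first comparison asked how the members differed between P10 and P120 in WT brain. All 7 members passed the threshold (adjusted p under 0.05, limma): Scn4b, Scn2b, Scn1a and Scn8a were higher at P120 and Scn3a, Scn3b and Scn2a lower. Over all genes tested the share was 58.3%, with 28.9% higher and 29.4% lower, so that a change with age was itself common. The P120 mice had also received vehicle through the dam, and age and vehicle cannot be told apart.

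Among the beta subunits, Scn4b, whose protein is the source of the open-channel blocker behind resurgent sodium current, changed the most. Its 5 P10-WT libraries had 1814, 2045, 1864, 1412 and 2626 normalized counts (mean 1952 ± 442) and the 5 P120-WT-Veh libraries 9067, 11089, 11324, 9596 and 9464 (mean 10108 ± 1025). Each adult library was thus far above each P10 library, a ratio of means of 5.18 and a log2 fold change of 2.40 (SE 0.13, adjusted p = 1.6e-08, limma). Of the 17927 genes tested, 112 had a larger positive log2 fold change. Scn2b, a subunit linked to the alpha subunit by a disulfide bond, as is the Scn4b product, had 4721, 4924, 4714, 3853 and 5822 normalized counts at P10 and 7897, 9824, 10931, 10054 and 9265 at P120. The groups did not overlap, and the log2 fold change was 1.00 (SE 0.11, adjusted p = 4.7e-06, limma). Scn3b, whose product associates with the alpha subunit without that bond, went the other way, from 4997 to 6286 at P10 down to 2737 to 4324 at P120, again without overlap (log2 fold change -0.74, SE 0.12, adjusted p = 1.5e-04, limma).

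Among the alpha subunits, Scn3a, the gene of NaV1.3, had 2820, 2870, 2926, 3290 and 2678 normalized counts in P10-WT and 1836, 1525, 619, 973 and 1360 in P120-WT-Veh. Each adult library was lower than each P10 library (log2 fold change -1.30, SE 0.23, adjusted p = 2.9e-04, limma). Scn2a (NaV1.2) had 11608, 11670, 11405, 11486 and 11412 at P10, within a narrow band, and 9010, 8865, 5114, 6629 and 8376 at P120 (log2 fold change -0.63, SE 0.13, adjusted p = 0.0011, limma). The P120 values did not overlap the P10 values and were more spread, with an SD of 1682 against 119. Scn1a (NaV1.1), in which loss-of-function variants cause Dravet syndrome in people, had 3390, 3891, 3661, 3372 and 4368 at P10 and 4829, 4858, 4150, 5307 and 7023 at P120. Only the lowest adult library fell within the P10 range, and the log2 fold change was 0.47 (SE 0.12, adjusted p = 0.0050, limma). Scn8a (NaV1.6), the main alpha subunit of mature nodes, went from 10211 to 11710 at P10 to 11855 to 13818 at P120, without overlap but with a small log2 fold change of 0.23 (SE 0.06, adjusted p = 0.0063, limma).

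No member lost the threshold when any of the 10 libraries was left out, the library labelled WT-Veh replicate 2 included. In 1 fit of all 30 libraries Scn1a had an adjusted p of 0.081. With the correction for GC content and length, Scn1a was at 0.88 (SE 0.10) and Scn2a at -0.22 (SE 0.07), both still past the threshold, so the size of these 2 values depends on it.

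**Figure D2:**
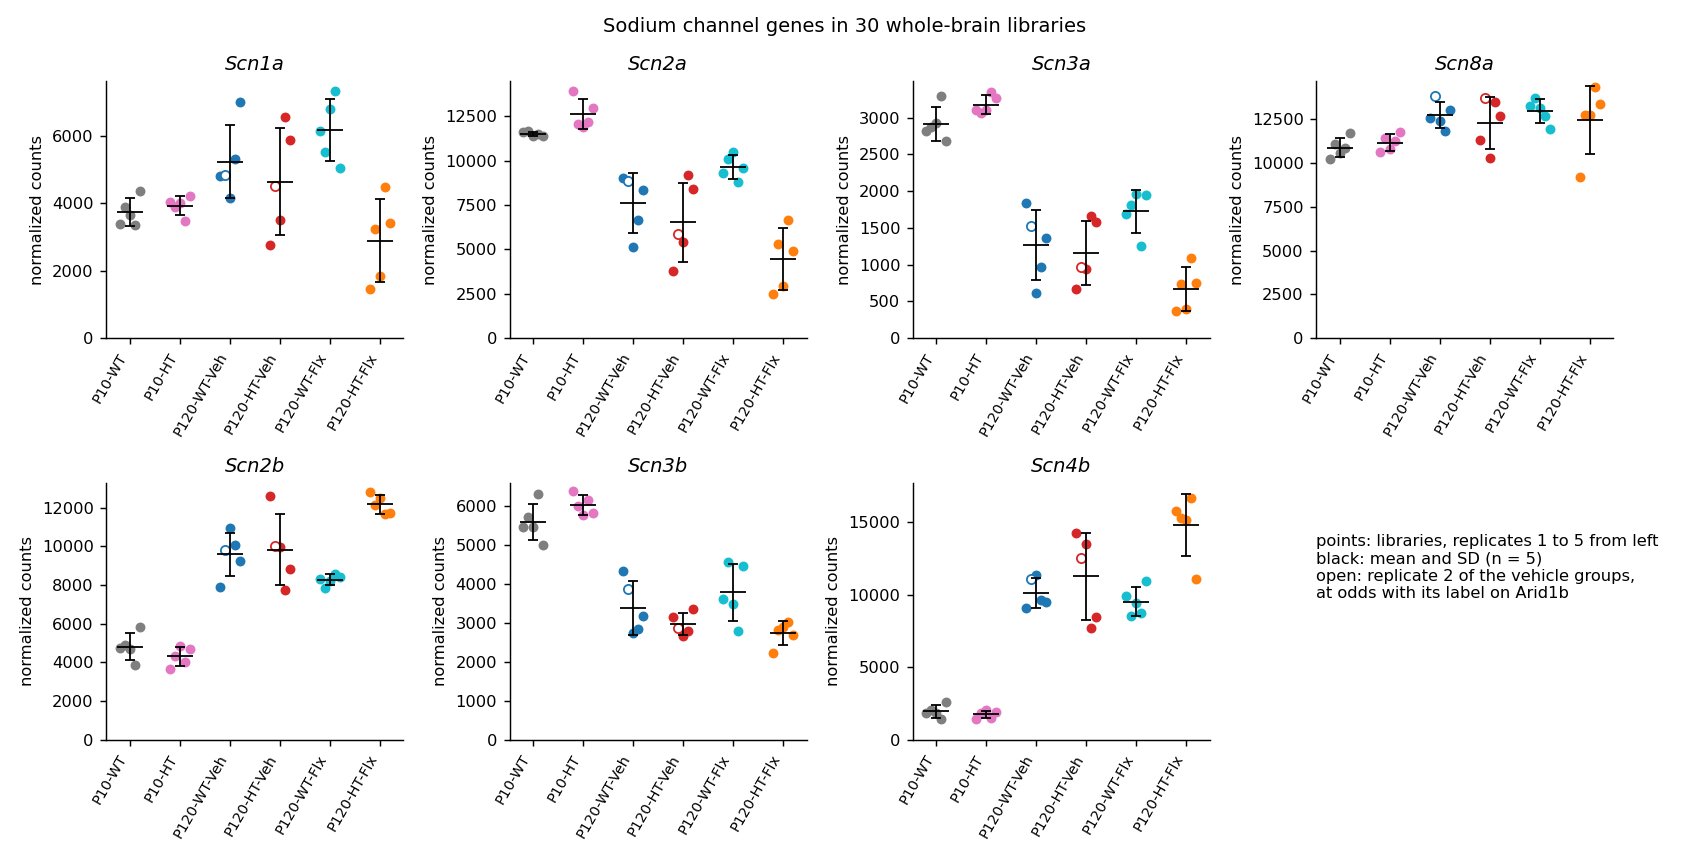
Each panel gives 1 gene in normalized counts (axes from 0) for the 6 groups; points are libraries, black bars the mean and SD (n = 5), and open points the replicate 2 vehicle libraries that go against their labels on Arid1b. Scn4b lies between 1412 and 2626 in P10-WT and between 9067 and 11324 in P120-WT-Veh, and Scn1a, Scn2a and Scn3a are lowest in P120-HT-Flx.

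In HT brain, 5 of the 7 members passed the same comparison of P120-HT-Veh with P10-HT, 2 higher and 3 lower, where 51.1% of all genes tested passed, 25.8% higher and 25.3% lower. Scn4b had 1456, 1829, 2054, 1474 and 1907 normalized counts at P10 and 14229, 12498, 13502, 7695 and 8426 at P120 (log2 fold change 2.66, SE 0.18, adjusted p = 2.4e-07, limma). Replicates 1, 2 and 3 of the adult libraries were well above replicates 4 and 5, and all of them lay above the P10 range. Scn2b was at 3660 to 4823 at P10 and 7741 to 12626 at P120 (log2 fold change 1.18, SE 0.14, adjusted p = 1.7e-05, limma).

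Scn3a had 3107, 3063, 3104, 3350 and 3274 normalized counts in P10-HT and 664, 969, 941, 1668 and 1573 in P120-HT-Veh (log2 fold change -1.53, SE 0.21, adjusted p = 7.1e-05, limma). Scn2a had 13923, 12065, 11886, 12204 and 13003 at P10 and 3796, 5887, 5406, 9215 and 8393 at P120 (log2 fold change -1.02, SE 0.20, adjusted p = 0.0011, limma). For both genes the groups did not overlap, and replicates 4 and 5 were the highest of the adult libraries. Scn3b went from 5759 to 6378 down to 2657 to 3347 (log2 fold change -1.03, SE 0.10, adjusted p = 3.2e-06, limma).

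Scn1a and Scn8a did not pass in HT, with log2 fold changes of 0.18 (SE 0.20, adjusted p = 0.48, limma) and 0.13 (SE 0.11, adjusted p = 0.32). Scn1a had 2754, 4525, 3517, 6567 and 5889 normalized counts in P120-HT-Veh, a range that encloses that of P10-HT, 3465 to 4224. The GC contrast of the same 5 libraries was 0.84, 0.32, 0.37, -0.78 and -0.66, and after the correction for GC content and length the log2 fold change of Scn1a was 0.82 (SE 0.08, adjusted p = 1.1e-06, limma) and those of Scn2a and Scn3a were -0.37 (SE 0.07) and -0.89 (SE 0.08), all past the threshold. Leaving out any 1 library, HT-Veh replicate 2 among them, did not change the number of members past the threshold.

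The difference between the 2 genotypes in this change was not past the threshold for any member, nor for any of the 17978 genes tested (0%, limma; 612 genes at an unadjusted p under 0.05, and 2 genes past the threshold without the intensity trend). The interaction was largest for Scn2a, at -0.38 (SE 0.26), and lay between -0.29 and 0.27 for the other members. The age change of Scn1a passing in WT and not in HT is thus not shown to differ, with an interaction of -0.29 (SE 0.25, adjusted p = 0.88). Without both replicate 2 vehicle libraries it was -0.32 (SE 0.28).

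Cell type markers moved with age as well. All 8 markers of immature neurons and progenitors were lower at P120 in both genotypes, with summed levels of 18654 to 24118 in P10-WT and 3704 to 4936 in P120-WT-Veh. Of 7 oligodendrocyte markers 4 were higher in WT and 5 in HT (summed level 126684 to 246008 in P10-WT and 177393 to 264467 in P120-WT-Veh). All 4 oligodendrocyte precursor markers were lower in WT. Of 9 markers of Purkinje and striatal neurons, cell types in which Scn4b is abundant, 5 were higher in WT and 8 in HT, with sums of 24854 to 31068 in P10-WT and 50080 to 78476 in P120-WT-Veh. General neuron markers overlapped, at 185638 to 196724 and 190009 to 210026. Sums of glutamatergic markers did not overlap (86552 to 99194 in P10-WT and 125420 to 180295 in P120-WT-Veh), although 2 of the 7 were higher and 3 lower. GABAergic marker sums did not overlap either (23071 to 25150 and 31513 to 39240, with 4 of 7 higher and 1 lower), nor did those of choroid plexus (11238 to 15456 and 22256 to 33087, 3 of 4 higher). Without WT-Veh replicate 2, these sums kept their order and 3 oligodendrocyte and 3 GABAergic markers were higher in WT, and without HT-Veh replicate 2, 7 Purkinje and striatal markers were higher in HT. The part of these cell types in the members' changes was not tested.

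Genes that work with the channels were grouped in lists. With age, 28.9% of all genes tested were higher and 29.4% lower in WT, and 25.8% higher and 25.3% lower in HT. Of the other channel genes, Scn4a was not analysed here, and 7 were tested with age. The alpha subunit genes known from sensory neurons were low, and of these Scn11a (-1.76, SE 0.31) and Scn9a (-1.07, SE 0.22) fell in WT. Scn7a was higher in WT (0.68, SE 0.25), with 0.61 (SE 0.26, adjusted p = 0.061, limma) in HT. In HT, Scn11a (-2.10, SE 0.28), Scn9a (-1.44, SE 0.27) and the sodium leak channel gene Nalcn (-0.39, SE 0.14; in WT -0.25, SE 0.07) fell. In all, 2 of 7 were higher and 3 lower in WT (median log2 fold change 0.11, against -0.01 over all genes tested), and 1 higher and 3 lower in HT (median 0.35, against -0.02).

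Of 17 genes for anchoring at the axon initial segment and node, 3 were higher and 10 lower in WT (median -0.27) and 3 higher and 7 lower in HT (median -0.33). L1cam, an adhesion molecule of growing axons, had log2 fold changes of -1.13 (SE 0.08) in WT and -1.32 (SE 0.13) in HT. Cntn1, a contactin that binds beta subunits, had -0.99 (SE 0.10) and -1.20 (SE 0.16), and Kcnq3, a potassium channel of the initial segment, -0.84 (SE 0.13) and -1.20 (SE 0.16). Sptbn4, the spectrin of initial segments and nodes, was higher in WT (0.96, SE 0.06) and HT (1.02, SE 0.13), and so was Cntnap1, the paranodal partner of contactin (0.83, SE 0.09, and 1.07, SE 0.17).

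Of 15 modulators, 2 were higher and 7 lower in each genotype (medians -0.24 in WT and -0.40 in HT). Ptprz1, a receptor phosphatase, had log2 fold changes of -1.37 (SE 0.14) in WT and -1.70 (SE 0.22) in HT. Fgf13, a fibroblast growth factor homologue that binds the channel's tail, had -1.15 (SE 0.08) and -1.35 (SE 0.11), and the kinase gene Fyn -1.26 (SE 0.06) and -1.24 (SE 0.10). Tnr, a matrix protein of nodes, fell in WT (-1.05, SE 0.11) and HT (-1.14, SE 0.14), and the kinase gene Camk2a was higher in both (1.13, SE 0.11, and 1.12, SE 0.13).

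Of 5 genes of the secretases that cleave beta subunits, 1 was higher and 3 lower in WT (median -0.30) and 1 higher and none lower in HT (median -0.01). Aph1a (-0.44, SE 0.07), Ncstn (-0.33, SE 0.06) and Bace1 (-0.30, SE 0.07) fell in WT, with values of -0.01 (SE 0.22), -0.29 (SE 0.12) and -0.19 (SE 0.10) in HT that did not pass, and Psenen was higher in WT (0.26, SE 0.08) and HT (0.53, SE 0.12). Of 9 genes of transcription and splicing, 2 were higher and 4 lower in WT (median -0.15), and 1 higher and 2 lower in HT (median -0.17). Ptbp2, a splicing repressor of young neurons, had -0.68 (SE 0.10) in WT and -1.02 (SE 0.21) in HT. Srrm4, a regulator of neuronal microexons, had -0.33 (SE 0.08) and -0.44 (SE 0.10). Nova2 (-0.36, SE 0.07) fell and Mbnl2 (0.36, SE 0.14) was higher in WT, with -0.27 (SE 0.14) and 0.25 (SE 0.20) in HT that did not pass, and Rbfox3 was higher in WT (0.22, SE 0.07) and HT (0.45, SE 0.15). None of these genes is thereby shown to differ between the genotypes, since no interaction passed. Without WT-Veh replicate 2, 1 other channel gene and no gene of transcription and splicing was higher in WT. Without HT-Veh replicate 2, 2 other channel genes and 6 modulators were lower in HT, and the other list counts with age were as given. With the correction for GC content and length, 4 anchoring genes were higher and 7 lower in each genotype (medians -0.11). Of the modulators 2 were higher and 7 lower in WT, and 5 and 6 in HT (medians -0.18 and -0.16). The counts were 2 and 2 other channel genes and 2 and 3 genes of transcription and splicing in each genotype. For secretase genes they were 0 and 3 in WT and 2 and 1 in HT.

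**Figure D3:**
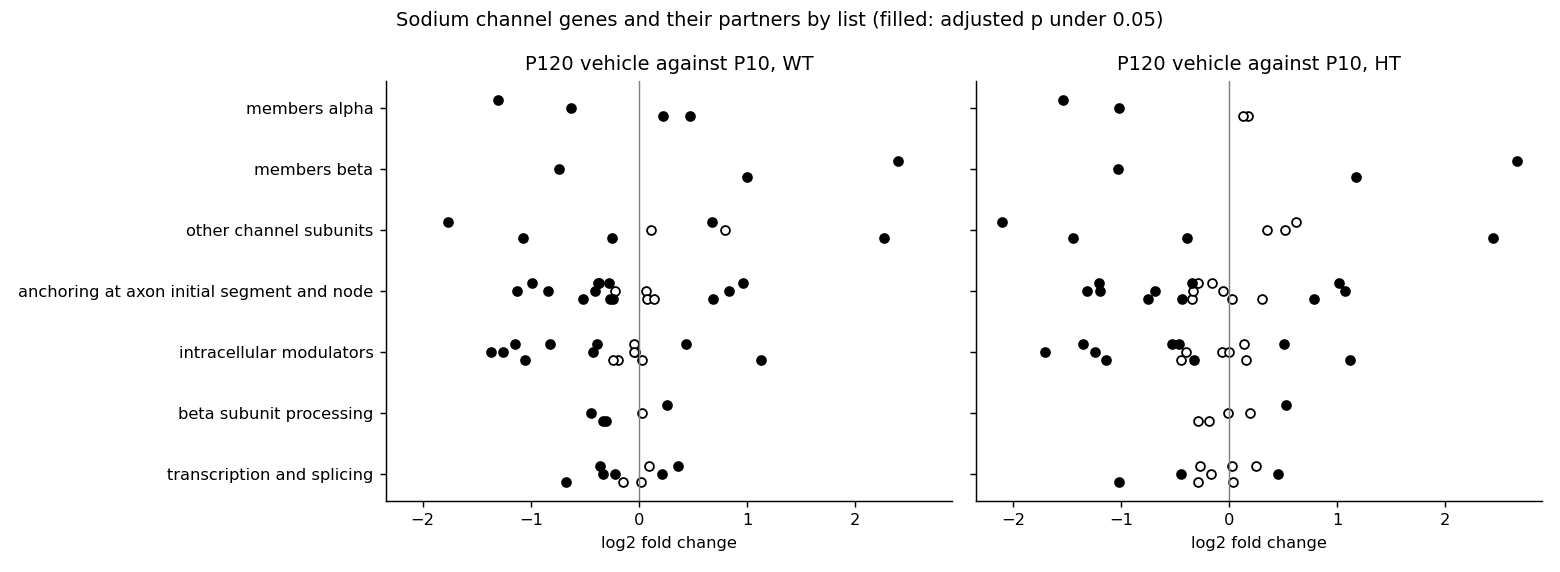
Points are genes of the alpha and beta subunit sets and of 5 lists of related genes, placed by their log2 fold change of P120 vehicle against P10 in WT (left) and HT (right); filled points passed an adjusted p of 0.05. Scn4b (2.40 in WT) lies at the right end, and 10 of 17 anchoring genes lie lower in WT.

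At P10, HT and WT brain were compared without treatment. No member passed the threshold, and 4 of 17896 genes did (0.0224%, limma; 2249 genes at an unadjusted p under 0.05), Arid1b among them (log2 fold change -0.55, SE 0.04, adjusted p = 1.5e-05). The 4 alpha subunit genes and Scn3b had small positive log2 fold changes, from 0.04 (SE 0.04) for Scn8a to 0.13 (SE 0.04) for Scn2a, and Scn2b (-0.15, SE 0.10) and Scn4b (-0.15, SE 0.14) negative ones. Scn2a had the smallest adjusted p, 0.32, with 11886 to 13923 normalized counts in HT against 11405 to 11670 in WT. The Scn2a groups did not overlap, although the test across all genes was not passed, and the share of all genes without overlap was not counted. The highest Scn2a library, P10-HT replicate 1, had a GC contrast of -0.35, against 0.03 to 0.09 in P10-WT. With the correction for GC content and length Scn2a was at 0.07 (SE 0.03, adjusted p = 0.42, limma).

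Between vehicle-treated HT and WT mice at P120, no member passed in replicates 1, 3, 4 and 5, the libraries listed with the published results of this comparison, nor did any of the 17784 genes tested (0%, limma; 229 genes at an unadjusted p under 0.05, and 1 gene in the fit of all 30 libraries). The largest difference was that of Scn1a, at -0.25 (SE 0.28), and the others lay between -0.17 (SE 0.29) for Scn2a and 0.10 (SE 0.22) for Scn4b. With the correction for GC content and length Scn1a was at -0.10 (SE 0.12), Scn2a at -0.02 (SE 0.10), Scn3a at 0.18 (SE 0.19, against 0.03, SE 0.36) and Scn4b at 0.07 (SE 0.12). In all 5 and 5 libraries under their labels the values were -0.22 (SE 0.22) for Scn1a and -0.26 (SE 0.24) for Scn2a. Within each group the spread was wide. Scn2a ran from 3796 to 9215 normalized counts in P120-HT-Veh and from 5114 to 9010 in P120-WT-Veh, so differences of the size of these standard errors were not detectable here.

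Early fluoxetine was compared with vehicle in each genotype. In HT, no member and no gene of 17676 passed (0%, limma; 4082 genes at an unadjusted p under 0.05, and 5916 past the threshold in the fit of all 30 libraries). Scn3a had 364, 739, 389, 1087 and 753 normalized counts in P120-HT-Flx, against the 664 to 1668 of P120-HT-Veh given above (log2 fold change -0.84, SE 0.32, adjusted p = 0.22, limma). Scn1a had 1461, 3233, 1831, 4502 and 3428 (-0.73, SE 0.31, adjusted p = 0.22), and Scn2a 2455, 5327, 2917, 6669 and 4922 (-0.58, SE 0.29, adjusted p = 0.22). All 3 groups of values overlapped with vehicle. Scn2b (0.33, SE 0.14, adjusted p = 0.22) and Scn4b (0.42, SE 0.19, adjusted p = 0.22) were on the other side of 0, while Scn8a (0.01, SE 0.15) and Scn3b (-0.12, SE 0.12) were near it. In the fit of all 30 libraries, 5 members passed, Scn1a, Scn2a, Scn3a, Scn2b and Scn4b. With the replicate number as a block, 1355 genes passed, among them Scn1a (adjusted p = 0.033, limma), Scn2a (adjusted p = 0.034) and Scn3a (adjusted p = 0.033). Of the same-numbered pairs of libraries 3 of 5 correlated above 0.1, and whether the numbers pair these libraries is not settled. With the correction for GC content and length, Scn1a was at -0.23 (SE 0.12), Scn2a at -0.08 (SE 0.10), Scn3a at -0.34 (SE 0.13), Scn2b at 0.23 (SE 0.09) and Scn4b at 0.16 (SE 0.12). Without the library labelled HT-Veh replicate 2, no member passed either.

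In WT, no member and no gene of 17865 passed (0%, limma; 4504 genes at an unadjusted p under 0.05). The largest values were those of Scn3a (0.53, SE 0.25, adjusted p = 0.20) and Scn2a (0.37, SE 0.14, adjusted p = 0.14), followed by Scn1a (0.25, SE 0.14), Scn2b (-0.21, SE 0.08, adjusted p = 0.15) and Scn3b (0.16, SE 0.15). With the correction for GC content and length Scn3a was at 0.29 (SE 0.19), Scn2a at 0.13 (SE 0.08), Scn1a at 0.01 (SE 0.10), Scn2b at -0.16 (SE 0.07) and Scn3b at 0.06 (SE 0.14), and Scn4b went from -0.09 (SE 0.09) to 0.08 (SE 0.07). Scn2a had 9327, 10096, 10484, 8776 and 9588 normalized counts in P120-WT-Flx, and the lowest of these lay within the range of P120-WT-Veh. Without WT-Veh replicate 1, 1400 genes passed, Scn2b among them (-0.27, adjusted p = 0.039), and without WT-Veh replicate 5, 624 genes passed and no member. Without the library labelled WT-Veh replicate 2, no member passed.

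Among fluoxetine-treated mice, HT and WT brain differed at 6 of the 7 members, where 63.7% of all 17799 genes tested passed, 33.1% higher and 30.5% lower. Scn1a, Scn2a, Scn3a and Scn3b were lower in P120-HT-Flx and Scn2b and Scn4b higher. Scn8a was not past the threshold (log2 fold change -0.07, SE 0.11, adjusted p = 0.60, limma), with 9178 to 14331 normalized counts in HT and 11926 to 13735 in WT.

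Scn3a had 1683, 1808, 1961, 1246 and 1942 normalized counts in P120-WT-Flx, all above the 364 to 1087 of P120-HT-Flx (log2 fold change -1.48, SE 0.27, adjusted p = 4.4e-04, limma). Scn1a had 6160, 5513, 6808, 7343 and 5054 in WT, all above the 1461 to 4502 of HT (-1.20, SE 0.26, adjusted p = 0.0015). Scn2a, at 8776 to 10484 in WT and 2455 to 6669 in HT, likewise did not overlap (-1.21, SE 0.23, adjusted p = 5.8e-04). In each of these 3 genes, HT-Flx replicates 1 and 3 were the lowest libraries.

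Of the beta subunits, Scn2b had 12835, 12159, 12505, 11682 and 11703 normalized counts in P120-HT-Flx and 8316, 7848, 8195, 8592 and 8423 in P120-WT-Flx (log2 fold change 0.56, SE 0.06, adjusted p = 3.7e-05, limma). Scn4b had 15791, 15275, 15156, 16629 and 11090 in HT and 9923, 8532, 9422, 8713 and 10953 in WT (0.63, SE 0.11, adjusted p = 4.3e-04). The groups did not overlap for either gene, though the lowest HT library of Scn4b was close to the highest WT library. Scn3b was at 2220 to 3012 in HT and 2787 to 4565 in WT, which overlapped (-0.45, SE 0.13, adjusted p = 0.010).

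The 4 members under 50% GC were lower and the 2 called members above 50% higher, a division made after the values were seen. Scn8a, at 50.8% and thus close to Scn2b at 50.5%, did not pass. The GC contrasts of the libraries of these groups did not overlap, so genotype and GC contrast cannot be told apart here. The part of GC content in these differences was not tested. With the correction for GC content and length, 3 members remained past the threshold, where 35.9% of all genes tested passed: Scn3a at -0.56 (SE 0.15, adjusted p = 0.011), Scn2a at -0.29 (SE 0.09, adjusted p = 0.023) and Scn2b at 0.40 (SE 0.06, adjusted p = 3.8e-04). Scn1a (-0.28, SE 0.12, adjusted p = 0.090), Scn3b (-0.11, SE 0.12, adjusted p = 0.49) and Scn4b (0.15, SE 0.10, adjusted p = 0.26) did not pass. No member changed its call when any library was left out. Oligodendrocyte marker sums were 250784 to 279877 in P120-HT-Flx and 178977 to 237449 in P120-WT-Flx, astrocyte marker sums 66968 to 101503 and 107110 to 121279, and microglia marker sums 7321 to 11898 and 5835 to 7227, all without overlap. Within these lists of 7 markers each, 3 oligodendrocyte markers were higher and 2 lower, 2 astrocyte markers higher and 4 lower, and 4 microglia markers higher and 1 lower. With the correction for GC content and length these counts were 3 and 1, 1 and 2, and 0 and 0. Sums of neuronal markers overlapped: general neuron markers at 177731 to 214149 in P120-HT-Flx and 203147 to 213479 in P120-WT-Flx. Glutamatergic (128286 to 238233 and 108035 to 153315) and GABAergic sums (34772 to 42105 and 31830 to 35723) overlapped as well. The part of these markers and of the sums of the libraries was not tested.

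**Figure D4:**
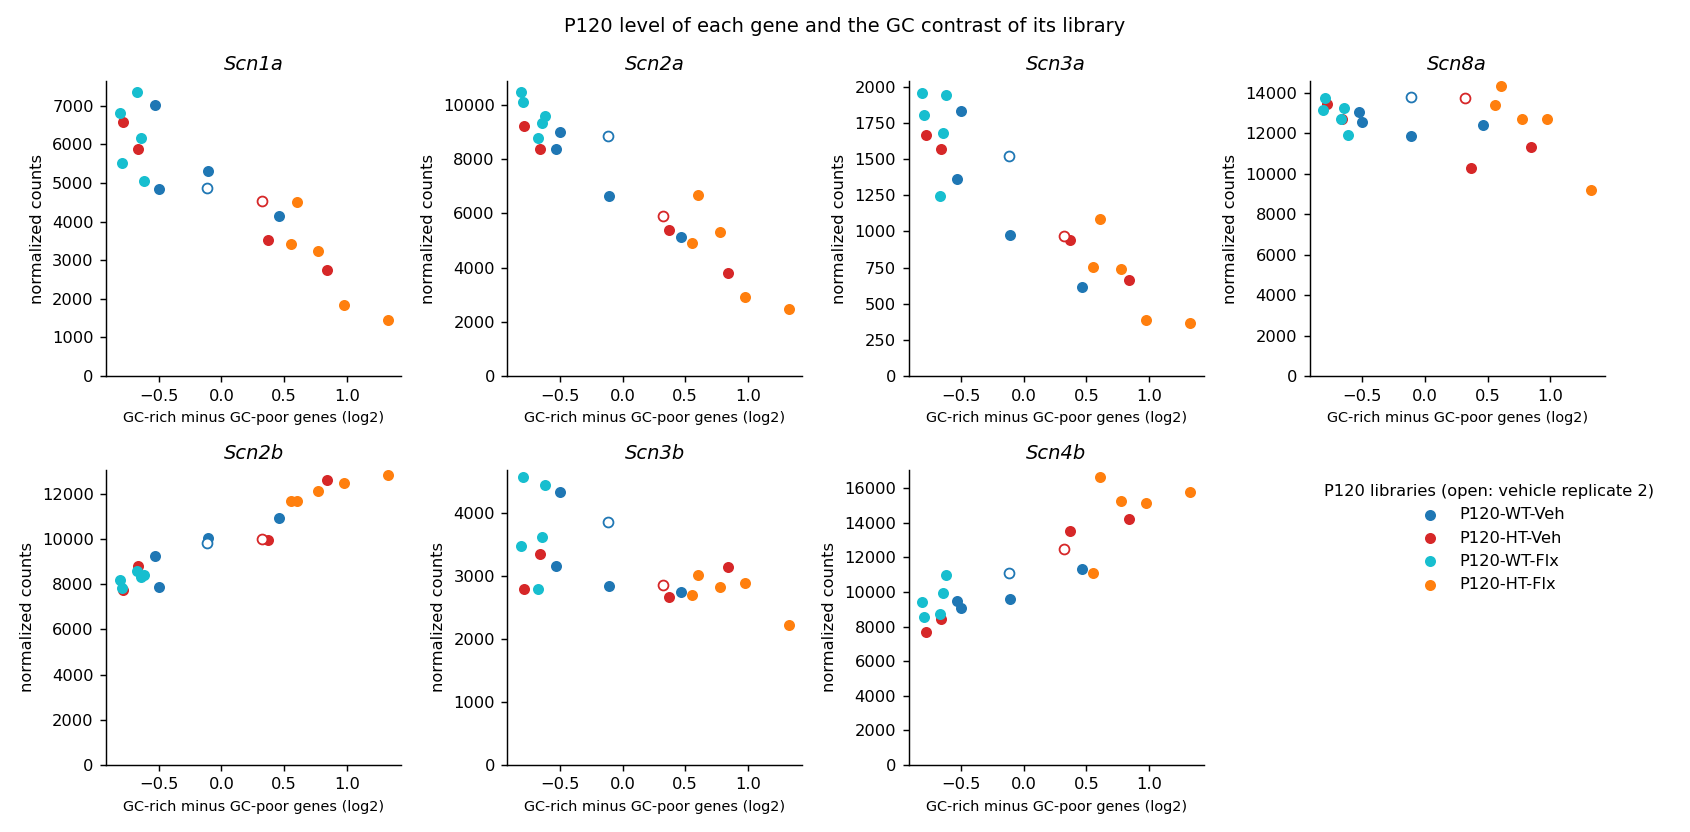
Each panel plots the normalized counts of 1 gene (vertical, from 0) against the GC contrast of the library (horizontal, log2, GC-rich minus GC-poor genes) in the 20 P120 libraries, coloured by group, with open points for the replicate 2 vehicle libraries. The P120-WT-Flx libraries lie between -0.81 and -0.62 and the P120-HT-Flx libraries between 0.56 and 1.33, with Scn1a, Scn2a and Scn3a falling and Scn2b rising from left to right across the groups.

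The same libraries entered the interaction of genotype and fluoxetine, the effect of fluoxetine in HT minus that in WT. At 27.3% of genes past the threshold (15.8% higher, 11.5% lower), 3 members passed: Scn3a (-1.37, SE 0.44, adjusted p = 0.036, limma), Scn2b (0.53, SE 0.15, adjusted p = 0.035) and, narrowly, Scn2a (-0.95, SE 0.35, adjusted p = 0.0499). Scn1a (-0.98, SE 0.37, adjusted p = 0.053) and Scn4b (0.51, SE 0.22, adjusted p = 0.077) had values of like size and did not pass, and Scn8a was at -0.01 (SE 0.15). These calls were not stable. No gene and no member passed with the correction for GC content and length (Scn3a -0.62, SE 0.24; Scn2b 0.39, SE 0.12; Scn2a -0.21, SE 0.13), or without both replicate 2 vehicle libraries (Scn3a -1.51, Scn2b 0.53, Scn2a -1.04). When single libraries were left out, the count of members ran from 0 to 5. It was 0 without HT-Flx replicate 1, WT-Flx replicate 2 or 3, HT-Veh replicate 4 or 5 or WT-Veh replicate 2, 3 or 4, it was 1 without HT-Flx replicate 3 or WT-Flx replicate 5, and it was 5 without HT-Flx replicate 5 or HT-Veh replicate 1 or 3.

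**Figure D5:**
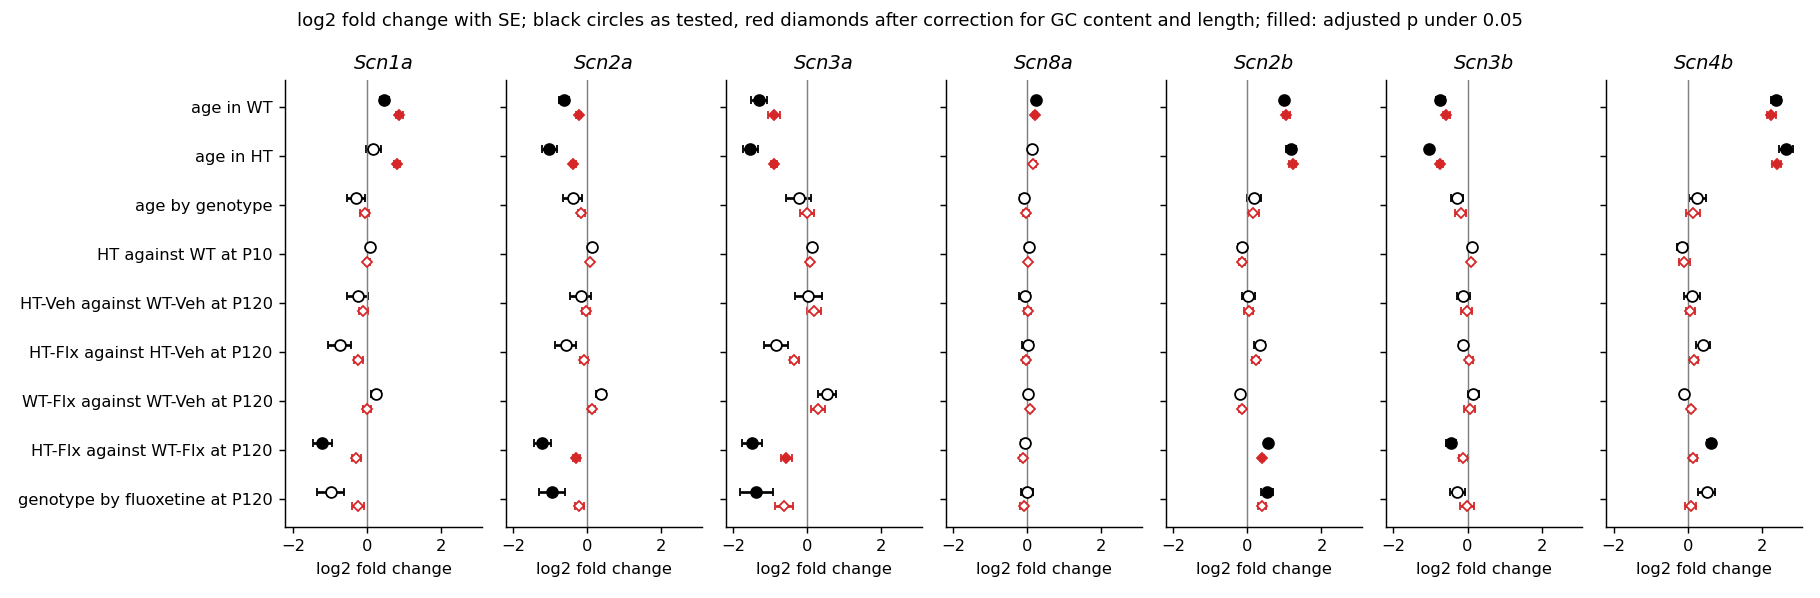
Rows are the 9 comparisons and columns the 7 genes; points give the log2 fold change (first-named group minus second, P120 minus P10 for age) with its SE, as black circles for the values as tested and red diamonds after correction for GC content and length, filled where the adjusted p was under 0.05. In HT-Flx against WT-Flx the Scn1a value moves from -1.20 to -0.28 with the correction and that of Scn4b from 0.63 to 0.15, while the age changes of Scn4b stay above 2.

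The lists of related genes were compared between fluoxetine-treated HT and WT brain as well. Of 6 other channel genes tested (Scn11a was under the mean of 10), 2 were higher and 4 lower (median -0.92, against 0.02 over all genes). Scn9a (-1.55, SE 0.27), Scn7a (-1.34, SE 0.23) and Scn10a (-1.08, SE 0.35) were lower. Of 17 anchoring genes 6 were higher and 9 lower (median -0.33), with Cntn1 (-0.98, SE 0.18), Kcnq3 (-0.95, SE 0.18), the ankyrin gene Ank2 (-0.89, SE 0.19) and Cntnap1 (0.84, SE 0.08) the largest.

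Of 15 modulators 2 were higher and 6 lower (median -0.27), with Ptprz1 (-1.26, SE 0.22), the channel-binding factors Fgf14 (-0.94, SE 0.18) and Fgf12 (-0.87, SE 0.16) and the calmodulin gene Calm3 (0.92, SE 0.11) the largest. All 5 secretase genes were higher (median 0.44), among them Aph1a (0.92, SE 0.12), Ncstn (0.44, SE 0.08) and Bace1 (0.38, SE 0.07), and 4 of the list were higher with the correction. Of 9 genes of transcription and splicing 4 were higher and 3 lower (median 0.08), with Ptbp2 (-1.14, SE 0.17), Mbnl2 (-1.07, SE 0.15), Rbfox3 (0.69, SE 0.08) and Nova2 (0.59, SE 0.11) the largest. With the correction for GC content and length, the counts higher and lower were 1 and 2 of 6 channel genes, 1 and 6 of 17 anchoring genes, 4 and 3 of 15 modulators and 1 and 1 of 9 genes of transcription and splicing.

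In the interaction, 1 other channel gene was higher and 3 lower, among them Scn7a (-1.34, SE 0.41), Scn9a (-1.29, SE 0.45) and Nalcn (-0.68, SE 0.23). Of the anchoring genes 5 were higher and 1 lower, led by Cntn1 (-0.81, SE 0.27), Cntnap1 (0.75, SE 0.18), Cntn2 (0.66, SE 0.19) and Sptbn4 (0.50, SE 0.16). Of the modulators 2 were higher and 4 lower, led by Ptprz1 (-1.09, SE 0.36), Fgf12 (-0.97, SE 0.28), Fgf14 (-0.85, SE 0.29) and Calm3 (0.78, SE 0.25). Of the genes of transcription and splicing 3 were higher and 3 lower, led by Ptbp2 (-0.98, SE 0.29), Mbnl2 (-0.95, SE 0.30), Rbfox3 (0.54, SE 0.18) and Rbfox2 (0.43, SE 0.12), and no secretase gene passed. None of these passed with the correction or without both replicate 2 vehicle libraries. In the other 5 comparisons no gene of these lists passed the threshold.

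Within groups, the members also varied together or apart from mouse to mouse. Over the deviations of the 30 libraries from their group means on the log2 scale, Pearson's r was 0.95 for Scn2a and Scn3a, 0.86 for Scn1a and Scn2a, 0.72 for Scn1a and Scn3a and 0.83 for Scn2b and Scn4b. Scn8a, on another chromosome, had r of 0.71 to Scn1a, 0.66 to Scn2a and 0.55 to Scn3a. Scn2b was on the other side of the 3 chromosome 2 genes, with r of -0.64 to Scn3a, -0.61 to Scn2a and -0.35 to Scn1a. The points share their library, whose GC contrast varied within groups, and these values are a description. Both replicate 2 vehicle libraries were included under their labels, and no r is given without them. Scn1a, Scn2a and Scn3a also share sequence, as given above, and its part in these values was not tested.

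By the same measure, over the 14525 genes with a mean of at least 50, the genes most like each member were Prune2, Sos1 and Ttbk2 for Scn1a (r of 0.97 to 0.98), Zfp148, Psd3 and Ash1l for Scn2a (0.98), Unc5d, Pak3 and Nexmif for Scn3a (0.96 to 0.97), and Atrn, Aak1 and Helz for Scn8a (0.89 to 0.92). Those most like the beta subunit genes were Elmo2, Habp4 and Sirt2 for Scn2b (0.86 to 0.89), Lrrc55, Fam81a and Foxp1 for Scn3b (0.88 to 0.93) and Iffo1, Stac2 and Pacsin1 for Scn4b (0.87 to 0.89). The GC content of the 9 genes most like the chromosome 2 members was 39.0% to 47.3%, and that of the 6 most like Scn2b and Scn4b 53.6% to 58.9%.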

How the data were processed

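The authors prepared RNA with a TruSeq kit (v2), quantified reads on GRCm38 with Salmon 1.1.0 and its GC bias correction, imported gene-level estimates by tximport and divided them by DESeq2 1.30.1 size factors, per the labels and methods. The deposited values are a normalized signal, fractional in every nonzero value, and not whole reads, so depth is unknown and count tests were not used. Samples were grouped by their labels, 5 per group, and the study gives these as 5 mice.

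Values were compared as log2(value + 1), so that fold changes of low genes are understated, with limma 3.58.1 (R 4.3.3) and an intensity trend over genes with a mean of at least 10, at a Benjamini-Hochberg adjusted p of 0.05 over all genes tested. HT-Veh and WT-Veh were compared in replicates 1, 3, 4 and 5, the libraries listed with the published results of this comparison, while the published text gives 5 mice per group. The correction for GC content and length subtracts each library's mean deviation in 100 bins of genes. Symbols, positions and lengths came from GENCODE vM21 (99.9% of genes matched). The members and lists were chosen with earlier results of these data known. Genes named were the members, Arid1b, the 4 called genes of each list with the largest log2 fold change per comparison, and the 3 genes most like each member, and some items that this rule names are not reported here. On simulated data with 200 genes changed by 1 on the log2 scale, 53.5% (HT-Veh against WT-Veh, 14416 genes) to 96% (HT against WT at P10, 14500 genes) were recovered. The simulation used genes with a mean of at least 50 and noise that was independent between genes. The real libraries held lower genes and differed in GC contrast, so these shares may not hold for them. Alternatives were other pseudocounts, filters and scalings, a replicate block, no trend, 1 fit of all libraries, the correction, and each library left out.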

Additional observations from a re-analysis of the deposited data

Results flagged for a closer look

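Among the 42 groups of 5 libraries (7 members in 6 groups), 1 held a library that stood apart from the other 4, where chance flags about 1 in 20 groups: HT-Flx replicate 5 had 11090 normalized counts of Scn4b, and its gap to the next library was 0.734 of the range of the group. Without that library no member changed its call in HT-Flx against WT-Flx.

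The interaction term of genotype and fluoxetine passed for 3 members, where 27.3% of all genes tested passed (limma). These were Scn2a (-0.95, SE 0.35, adjusted p = 0.0499), Scn3a (-1.37, SE 0.44, adjusted p = 0.036) and Scn2b (0.53, SE 0.15, adjusted p = 0.035). None of the 3 passed with the correction for GC content and length or without both replicate 2 vehicle libraries. With single libraries left out, the count of members past the threshold ran from 0 to 5, so these calls were not stable.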

How the results depend on the processing

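The direction of every called member was kept under all alternatives tried. The replicate numbers were not taken as pairs, because in no comparison were all 5 same-numbered pairs correlated above 0.1. The correlation of same-numbered libraries ran from -0.28 to 0.40. In HT-Flx against HT-Veh its mean was 0.17, against -0.04 for other pairs, so whether some of these numbers were shared is not settled. With the replicate block, 1355 genes and 3 members (Scn1a, Scn2a and Scn3a) passed in HT-Flx against HT-Veh and 7 genes in HT against WT at P10, 2 and 8 genes passed with the block and the correction for GC content and length, and the block ended no call of a member. In HT-Flx against WT-Flx, 6390 genes and 3 members passed with the correction and 5231 genes and 3 members with correction and block. In the interaction of genotype and fluoxetine, 0 genes and 0 members passed with the correction, with correction and block, or without both replicate 2 vehicle libraries. In the fit of all 30 libraries, 7639 genes passed in that interaction, 5916 genes and 5 members in HT-Flx against HT-Veh, 1 gene in HT-Veh against WT-Veh and 0 genes in HT against WT at P10. Without the trend 2 genes passed in age by genotype. The causes were not tested.

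With 1 library left out, genes past the threshold ran from 9594 to 10707 for age in WT (7 members in each refit), 8128 to 10177 for age in HT (5 members), 10500 to 11521 in HT-Flx against WT-Flx (6 members), 3 to 8 in HT against WT at P10, 0 to 1 in HT-Veh against WT-Veh and in HT-Flx against HT-Veh, 0 to 1400 in WT-Flx against WT-Veh (0 to 1 members) and 0 to 7667 in the interaction of genotype and fluoxetine (0 to 5 members). No interaction of age and genotype passed. Depth is unknown, and the spread between 5 mice limits what could be detected. By the SD of normalized counts it was widest in P120-HT-Veh for Scn1a, Scn2a, Scn2b and Scn4b. For Scn3a, Scn8a and Scn3b it was widest in other P120 groups. Levels per kb moved by more than 1 SD in 23 of 42 cases with the length of all exons, and in none when a library was left out.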
